A study of Mus musculus with 43 samples.

Results

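The genes described here encode the enzymes, isoenzymes and regulators that make, break down and store hexose in the proximal tubule: glycolysis, gluconeogenesis, fructose and galactose entry, and glycogen. They are the 42 named genes of these pathways whose symbols were looked up in an expression table of 54532 genes, and all 42 were found. The study dissected the proximal tubule of C57BL/6 mice aged 6 to 8 weeks by hand into its successive parts S1, S2 and S3, taking 2 to 5 tubules for a sample. RNA-seq of female tubules comprised 6, 6 and 7 libraries for S1, S2 and S3. Transcript abundance is given as TPM (a transcript's length-scaled share of its library), which can be compared between genes. Unless a segment is named, a run of 3 values is in the order S1, S2, S3. The authors' table gives 1 TPM value per gene and segment, so each value below stands for all libraries of that segment and has no SD or n. No difference below could be set against the spread between animals, and no p-value is given. The numbers in the library titles differ between S1 (4 and 5) and S2 (1, 2 and 3), so if these mark animals, the first 2 segments shared none. All libraries used are from females of this strain, and the labels list no treatment. The ATAC-seq samples of both sexes were not analysed here.

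The proximal tubule is the part of the nephron known for making glucose. It takes up filtered lactate, glutamine and other small molecules, turns them into glucose 6-phosphate and releases free glucose through glucose-6-phosphatase. Glycolysis and gluconeogenesis share most of their enzymes and differ at 3 places, where one enzyme drives the carbon down and another drives it up: hexokinase against glucose-6-phosphatase, phosphofructokinase against fructose bisphosphatase, and pyruvate kinase against pyruvate carboxylase with PEP carboxykinase (PEP is phosphoenolpyruvate). Several steps can be served by isoenzymes from different genes, which differ in kinetics and regulation. Isoenzyme choice at each step along the tubule is therefore described first by levels and then by shares.

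The 42 genes together made up 1.55%, 0.978% and 0.855% of each segment's TPM. In dissected tubules, fewer cells of a type and less RNA per cell cannot be told apart. Of the 42 genes 37 reached a TPM of 1 in at least 1 segment and were compared. Hk2, Hk3, Gckr, G6pc2 and Eno2 did not, and lay at or below 0.8 TPM throughout. Differences are taken as log2(TPM + 1), and a difference of at least 1, which is 2-fold, was counted. On this scale 20 of the 37 (54.1%) were 2-fold apart between some pair of segments, against 33.3% of all 16053 genes compared. S1 exceeded S2 in 9 genes and was below it in 7, where 6.62% and 17.7% of all genes were. S1 exceeded S3 in 13 genes and was below it in 7, where the shares of all genes were 10.5% and 13.1%. Between S2 and S3 the single 2-fold difference was G6pc, higher in S2 (8.74% of all genes were higher in S2 and 2.24% lower). The median log2 differences over the 37 genes were 0.42 (S1 minus S2), 0.57 (S1 minus S3) and 0.14 (S2 minus S3). The corresponding medians over all genes were -0.18, -0.0053 and 0.12. Each later segment was lower than the one before for 18 of the 37 genes (48.6%, against 22.9% of all genes) and higher than the one before for 8 (21.6%, against 20.9%). By their largest difference between any pair of segments, Tpi1 (1.06) and Fbp1 (1.08) were just past the threshold and Fbp2 (0.94) and Pfkfb2 (0.86) just short of it.

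The counts depend on how the segments are scaled to each other. Median-of-ratios scaling over all genes above 0 moved the median of all genes by 0.65, 0.14 and -0.46 (the same 3 contrasts in that order). It put S1 above S2 in 18 genes, adding Eno1, Fbp1, Fbp2, Galk1, Gbe1, Gpi1, Pfkl, Pgk1 and Ugp2, and below it in 5, without Khk and Pfkfb4. Quantile normalization, which moved those medians by 0.27, 0.047 and -0.17, gave 6 and 7. Rescaling without mitochondrially encoded genes, Gpx3 and Kap moved the S1 minus S2 median by -0.16 and also gave 6 and 7. No 2-fold difference changed its direction under any of these. Smaller differences did. Of the genes that fell at each step, Gpi1, Pfkl, Fbp1, Fbp2, Aldoa, Gapdh, Pgk1, Ugp2, Pygb and Gbe1 did not under median-of-ratios scaling. For them S3 then lay above S2 (S2 minus S3 was -0.49 for Aldoa and -0.14 for Ugp2), while the other falling genes still fell. The shares of all genes that fall or rise were not recounted. Isoenzyme shares and ratios taken within a segment do not change when all genes of that segment are scaled by a single factor. Quantile normalization is not such a scaling, and shares and ratios were not recomputed under it.

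The segment labels were checked against markers. The 4 markers of S1 (Slc5a2, Slc5a12, Slc34a1, Gatm) summed to 17498, 2415 and 18.6 TPM. The 3 markers of S2 were highest there (306, 793 and 2.8 TPM), and the 5 markers of S3 summed to 0.9, 938 and 1228 TPM, nearly all from Slc22a7 and Slc5a1. Slc7a13, Acsm3 and Cyp7b1 stayed at or below 3.3 TPM, so the markers of S3 set S2 and S3 apart from S1 more than from each other. The sums of the S1 and S2 markers did set S2 apart from S3. Summed markers of other cells were lowest in S1 for endothelium (40.4, 379 and 125 TPM over 7 genes) and immune cells (54.9, 272 and 91.5 over 6 genes). For immune cells the lower sum in S1 than in S3 rests on Csf1r (0.5, 32 and 46.9 TPM). Cd74 (50.1, 193 and 37.8) and Ptprc (0.5, 2.5 and 0.4) were lowest in S3, and C1qa, C1qb and Lyz2 in S1. Marker values are taken up again beside the genes that are low in S1.

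**Figure D1:**
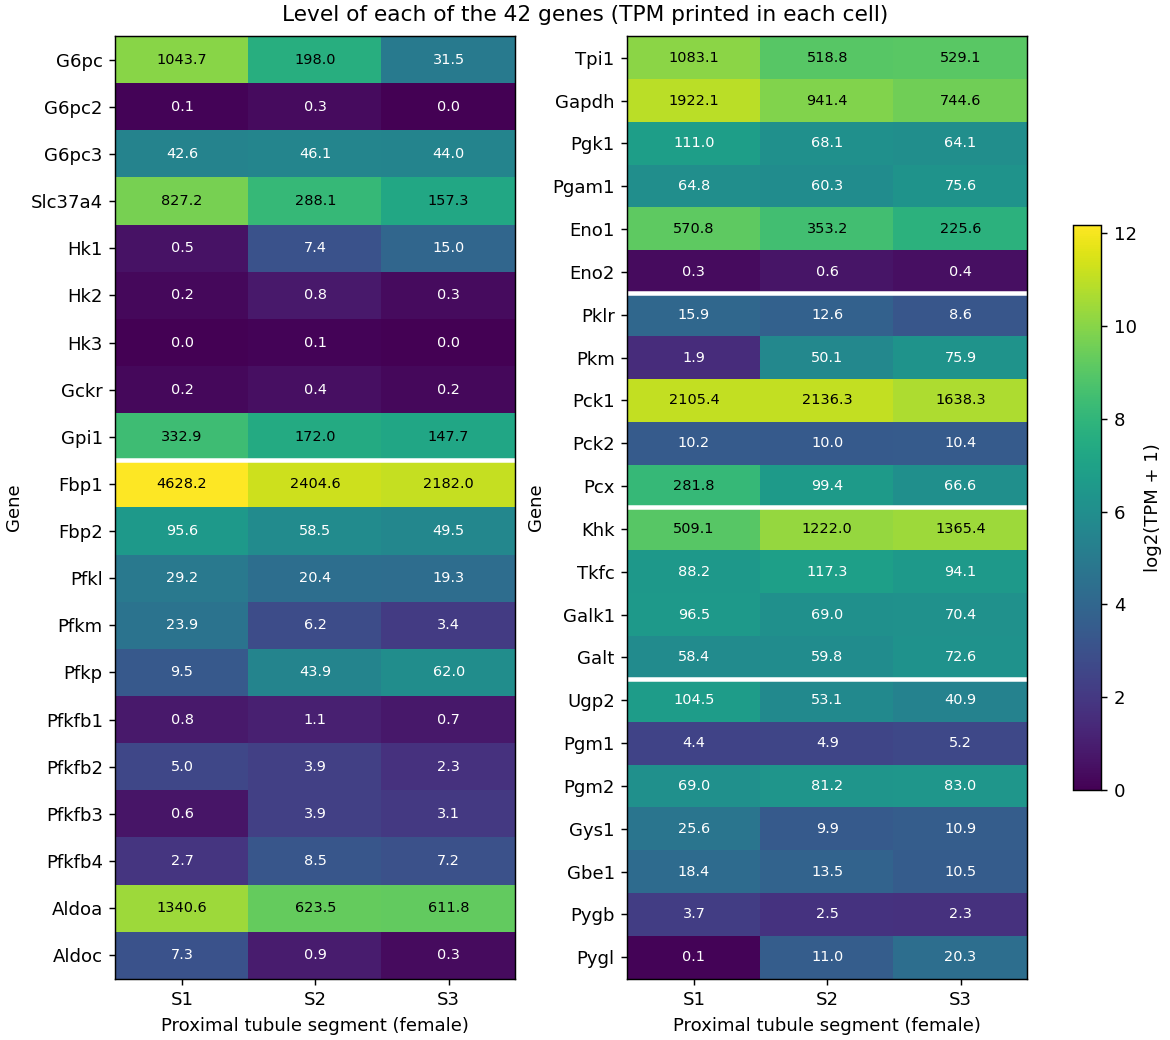
Level of each of the 42 genes in S1, S2 and S3 of the female proximal tubule; colour gives log2(TPM + 1), the number in each cell is the deposited TPM, and white lines part the pathway blocks. Fbp1, Pck1, Gapdh, Aldoa, Tpi1 and G6pc are the most abundant in S1, while the 3 hexokinase genes stay at or below 15 TPM in every segment.

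Glucose 6-phosphate stands where the pathways end, and here lay the largest 2-fold difference toward S1. G6pc, the catalytic subunit of glucose-6-phosphatase in liver and kidney, was at 1044, 198 and 31.5 TPM. Its locus is chromosome 11, 101367716 to 101377903, in GRCm38.p6. S1 exceeded S2 by 5.27-fold, S2 exceeded S3 by 6.29-fold, and the ends were 33.1-fold apart. G6pc3, the ubiquitous member of the same family, was at 42.6, 46.1 and 44.0 TPM, within 2-fold across the tubule. G6pc2, the pancreatic islet member, was at 0.1, 0.3 and 0 TPM. G6pc accordingly held 96.1%, 81.0% and 41.7% of the step's summed TPM, and S3 was the segment where G6pc3 led with 58.3%. Slc37a4, which carries glucose 6-phosphate into the endoplasmic reticulum where the phosphatase works, was at 827, 288 and 157 TPM, a gradient of 5.26-fold. The transporter was thus less abundant than G6pc in S1 and more abundant in S2 and S3.

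Hexokinase, which opposes the phosphatase, went the other way at a low level. Hk1, the general hexokinase bound to mitochondria, was at 0.5, 7.4 and 15 TPM, and S3 was 2.03-fold above S2 in plain TPM. On the log2(TPM + 1) scale S2 minus S3 was -0.93, short of the threshold. Hk1 lies on chromosome 10 from 62268855 to 62379920. Hk2, the insulin-regulated form of muscle and fat, was at 0.2, 0.8 and 0.3 TPM, and Hk3 was at 0.1 in S2 and listed at 0 in the others. Gckr, a regulatory protein of liver sugar phosphorylation, was at 0.2, 0.4 and 0.2 TPM. Hk1 held 71.4%, 89.2% and 98.0% of the 3 genes' sum, but with a sum of 0.7 TPM in S1 the rounding of the table alone allows a share there from 60.0% to 78.6%. The hexokinase-domain gene Hkdc1, not among the 42, was at 0.1, 0.3 and 0.1 TPM. Gpi1, which interconverts glucose 6-phosphate and fructose 6-phosphate for both directions, was at 333, 172 and 148 TPM.

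The sequences before the start sites of G6pc and G6pc3 are shown because one of the pair is graded along the tubule and the other is not, so that the lead passes from G6pc to G6pc3. Each is the 250 bases before a RefSeq start site (build GRCm38.p6, plus strand, read 5′ to 3′). G6pc is at chr11:101367466-101367715 and G6pc3 at chr11:102189449-102189698. Capitals mark matches, on either strand, to any of 6 short motifs. The half-site that the factor HNF1 is known to bind was searched as GTTAAT. The core bound by the factor HNF4 was searched as CAAAGTC. The half-site of the cyclic AMP response was searched as TGACG, and the core of the hypoxia response element as ACGTG. The E-box was searched as CACGTG, in which the hypoxia core occurs on both strands. The TATA box was searched as TATAAA.
G6pc: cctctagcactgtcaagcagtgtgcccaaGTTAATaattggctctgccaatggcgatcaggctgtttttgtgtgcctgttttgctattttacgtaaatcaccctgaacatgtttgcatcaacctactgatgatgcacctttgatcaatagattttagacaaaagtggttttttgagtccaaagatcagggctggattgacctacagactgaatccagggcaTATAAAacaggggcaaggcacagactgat
G6pc3: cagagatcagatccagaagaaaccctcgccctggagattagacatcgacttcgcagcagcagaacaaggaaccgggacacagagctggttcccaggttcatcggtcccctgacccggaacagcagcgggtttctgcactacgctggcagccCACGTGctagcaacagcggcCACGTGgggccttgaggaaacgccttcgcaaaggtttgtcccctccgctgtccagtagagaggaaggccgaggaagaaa
The G6pc window holds TATAAA starting at -29 and GTTAAT at -221, where -1 is the last base before the start. The G6pc3 window holds neither, and has CACGTG at 2 places. TATAAA occurs in 12.4% of the 32851 RefSeq windows of this length, GTTAAT in 6.43% and CACGTG in 6.02%. A match describes the letters in this window and is not shown to be a working site.

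Fructose bisphosphatase was the most abundant step among the members. Fbp1, the liver and kidney form, was at 4628, 2405 and 2182 TPM, and was the most abundant of the 42 genes in each segment. The S1 value was 2.12-fold above S3. Fbp2, the muscle form, was at 95.6, 58.5 and 49.5 TPM in the same order, so that Fbp1 held 98.0%, 97.6% and 97.8% of the step. On chromosome 13 Fbp2 spans 62836884 to 62858400 and Fbp1 62864753 to 62888298.

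Phosphofructokinase differed in isoenzyme more than in amount. The sum of its 3 genes was 62.6, 70.5 and 84.7 TPM. Pfkm, the muscle type, was at 23.9, 6.2 and 3.4 TPM and was 7.03-fold higher in S1 than in S3. Pfkp, the platelet type, was at 9.5, 43.9 and 62.0 TPM and was 6.53-fold higher in S3 than in S1. Pfkl, the liver type, was at 29.2, 20.4 and 19.3 TPM and was within 2-fold, except for S1 minus S2 (1.18) under median-of-ratios scaling over all genes above 0. In S1 the step was therefore mixed, with 46.6% Pfkl, 38.2% Pfkm and 15.2% Pfkp. In S2 Pfkp led with 62.3%, and in S3 with 73.2%, where Pfkm held 4.01%.

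The PFKFB enzymes make and remove fructose 2,6-bisphosphate, the signal that activates phosphofructokinase and restrains fructose bisphosphatase. All 4 were low. Pfkfb2, the heart and kidney form, was at 5.0, 3.9 and 2.3 TPM and Pfkfb4, first described in testis, at 2.7, 8.5 and 7.2. Pfkfb3, the form with the strongest kinase activity, was at 0.6, 3.9 and 3.1 TPM, and the liver form Pfkfb1 at 0.8, 1.1 and 0.7. The leading gene was Pfkfb2 in S1 with 54.9% of the sum and Pfkfb4 in S2 and S3 with 48.9% and 54.1%. At a pseudocount of 0.1, and under median-of-ratios scaling over all genes above 0, Pfkfb2 was also counted as higher in S1 than in S3, and that scaling left Pfkfb4 within 2-fold between S1 and S2.

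Of 6 genes at the steps that both directions share below fructose bisphosphate, Aldoa, Tpi1, Gapdh and Eno1 were over 2-fold higher in S1 than in S3, and Pgk1 and Pgam1 were within 2-fold. Aldoa, the aldolase of muscle and most tissues, was at 1341, 624 and 612 TPM. Tpi1, triosephosphate isomerase, was at 1083, 519 and 529 TPM, and Gapdh, which makes the bisphosphoglycerate, at 1922, 941 and 745. In these 3 genes S1 exceeded S2 by 2.04- to 2.15-fold, and all 3 were within 2-fold under quantile normalization and when mitochondrially encoded genes, Gpx3 and Kap were left out. Against S3 they kept the 2-fold difference under those 2 settings, but Tpi1 fell short of it under median-of-ratios scaling over genes of at least 1 TPM in all segments. Eno1, the general enolase, was at 571, 353 and 226 TPM and was 2.53-fold higher in S1 than in S3. Pgk1, phosphoglycerate kinase, was lower in level (111, 68.1 and 64.1 TPM) and within 2-fold, except for S1 minus S2 (1.40) under median-of-ratios scaling over all genes above 0. Pgam1, phosphoglycerate mutase, was at 64.8, 60.3 and 75.6 TPM and was the lowest of these shared steps in S1 and S2. Several of these genes have processed pseudogenes. Rows annotated as pseudogenes summed to at most 1.5 TPM in any segment for Gapdh (3 rows), 2.2 for Pgam1 (2 rows) and 0.1 for Pgk1 (2 rows). Pseudogenes whose symbol or annotation does not name the gene were not searched for. The symbol Aldoa also stands on a second gene ID with 0.1, 0.2 and 0.2 TPM, which was not added.

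The aldolase and enolase pairs kept the same leading gene. Aldoc, the brain aldolase, was at 7.3, 0.9 and 0.3 TPM, and Eno2, the neuronal enolase, at 0.3, 0.6 and 0.4. Aldoa held 99.5%, 99.9% and 99.95% of the pair and Eno1 99.9%, 99.8% and 99.8%. These shares cover only genes among the 42.

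Pyruvate kinase is the last step of glycolysis, and here Pkm had the largest difference toward S2 and S3 on the log2(TPM + 1) scale. At a pseudocount of 0.1 that of Pygl was larger (-6.67 for S1 minus S3, against -5.25 for Pkm). Pklr, the liver and red cell form, was at 15.9, 12.6 and 8.6 TPM. Pkm, the form of muscle and most other tissues, was at 1.9, 50.1 and 75.9 TPM, so that S2 exceeded S1 by 26.4-fold and S3 exceeded S1 by 39.9-fold. Pkm is on chromosome 9 from 59656576 to 59679372, and its M1 and M2 splice forms are not told apart by a value per gene. Pklr held 89.3% of the step in S1, and Pkm 79.9% in S2 and 89.8% in S3. The sum of both genes was 17.8, 62.7 and 84.5 TPM.

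The windows before the Pklr and Pkm start sites are shown because the lead passes from one gene to the other. RefSeq gives 2 starts for each gene, and the window with a match is printed. Pklr is at chr3:89136373-89136622 and Pkm at chr9:59656977-59657226, both on the plus strand of GRCm38.p6, with capitals as before.
Pklr: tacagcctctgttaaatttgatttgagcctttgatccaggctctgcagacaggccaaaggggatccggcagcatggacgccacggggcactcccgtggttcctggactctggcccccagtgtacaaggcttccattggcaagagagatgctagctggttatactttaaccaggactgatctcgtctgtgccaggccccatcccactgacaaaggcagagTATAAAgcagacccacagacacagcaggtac
Pkm: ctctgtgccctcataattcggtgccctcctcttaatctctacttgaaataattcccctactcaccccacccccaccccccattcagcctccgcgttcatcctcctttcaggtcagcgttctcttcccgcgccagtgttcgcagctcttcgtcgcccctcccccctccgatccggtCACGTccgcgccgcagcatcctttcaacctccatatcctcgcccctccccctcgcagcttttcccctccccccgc
The Pklr window has TATAAA at -31, close to its place in G6pc. The Pkm window has no TATAAA and holds ACGTG, on the opposite strand, at -75. ACGTG is in 16.6% of all windows.

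In the upward direction, PEP carboxykinase was within 2-fold. Pck1, the cytosolic form and a classical hormone-regulated gene of gluconeogenesis, was at 2105, 2136 and 1638 TPM, and Pck2, the mitochondrial form, at 10.2, 10.0 and 10.4. Pck1 held 99.5%, 99.5% and 99.4%. Pcx, pyruvate carboxylase, which makes the oxaloacetate that Pck1 uses, was at 282, 99.4 and 66.6 TPM. S1 exceeded S2 by 2.84-fold and S3 by 4.23-fold. Among the compared genes of the upward direction, G6pc, Slc37a4 and Pcx were thus graded by over 2-fold from S1 to S2. Fbp1 was graded by 1.92-fold and Fbp2 by 1.63-fold between these segments. Pck1, Pck2 and G6pc3 were within 2-fold between any pair of segments.

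Khk was lower in S1, while the other fructose and galactose enzymes among the 42 were within 2-fold. Khk, ketohexokinase, which phosphorylates fructose without feedback from glycolysis, was at 509, 1222 and 1365 TPM. S2 exceeded S1 by 2.40-fold and S3 exceeded S1 by 2.68-fold. Under median-of-ratios scaling over all genes above 0 the S1 against S2 difference was within 2-fold. Its locus is chromosome 5, 30921436 to 30931248. Tkfc, triokinase, which phosphorylates the glyceraldehyde from fructose, was at 88.2, 117 and 94.1 TPM, and so did not share the gradient. Of the galactose enzymes, Galk1 was at 96.5, 69.0 and 70.4 TPM and Galt at 58.4, 59.8 and 72.6. Galk1 was past 2-fold for S1 minus S2 (1.18) under median-of-ratios scaling over all genes above 0.

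The window before the Khk start (chr5:30921309-30921558, plus strand, GRCm38.p6) is shown because 4 of the 6 motifs match within a short stretch of it. They are not 4 separate sites, since the hypoxia core is part of any E-box match.
Khk: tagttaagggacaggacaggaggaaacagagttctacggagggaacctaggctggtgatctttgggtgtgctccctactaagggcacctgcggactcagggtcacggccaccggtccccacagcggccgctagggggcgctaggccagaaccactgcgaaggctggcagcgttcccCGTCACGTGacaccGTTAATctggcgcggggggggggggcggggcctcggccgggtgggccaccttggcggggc
CACGTG starts at -71 and GTTAAT at -60, and TGACG overlaps the E-box from -74 on the opposite strand.

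Apart from Ugp2 and a phosphoglucomutase the glycogen genes were low, and the leading phosphorylase differed along the tubule. Pygl, the liver glycogen phosphorylase, was at 0.1, 11 and 20.3 TPM, and S3 was 1.85-fold above S2. Pygb, the brain form, was at 3.7, 2.5 and 2.3 TPM. Pygb held 97.4% of the pair in S1, and Pygl 81.5% in S2 and 89.8% in S3. The muscle form Pygm, not among the 42 genes, was at 0.2, 1.5 and 0.3 TPM, and with it the share of Pygl in S2 was 73.3%. Synthesis had the other slope. Gys1, the general glycogen synthase, was at 25.6, 9.9 and 10.9 TPM, with S1 2.59-fold above S2. Gys2, the liver synthase, also not among the 42, was at 11.8, 12.1 and 1.6 TPM. Gbe1, the branching enzyme, was at 18.4, 13.5 and 10.5 TPM. Ugp2, which makes UDP-glucose, was at 105, 53.1 and 40.9 TPM and 2.56-fold higher in S1 than in S3. Phosphoglucomutase links glucose 6-phosphate with glucose 1-phosphate. The table's Pgm2 (ENSMUSG00000025791), which is annotated there as phosphoglucomutase 1 and carries the symbol Pgm1 in the reference table, was at 69.0, 81.2 and 83.0 TPM. The table's Pgm1 (ENSMUSG00000029171) was at 4.4, 4.9 and 5.2 TPM. Their shares, 94.0%, 94.3% and 94.1% for the first, were alike in the segments.

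The window before the Pygl start (chr12:70227684-70227933, minus strand, GRCm38.p6) is shown because Pygl had the lowest S1 level of the genes that led a step elsewhere.
Pygl: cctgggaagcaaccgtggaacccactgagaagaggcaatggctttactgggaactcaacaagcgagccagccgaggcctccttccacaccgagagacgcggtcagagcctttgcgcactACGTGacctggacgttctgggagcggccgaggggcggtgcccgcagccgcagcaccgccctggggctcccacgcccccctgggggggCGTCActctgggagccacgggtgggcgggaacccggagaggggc
It holds ACGTG at -131 and, on the opposite strand, TGACG at -44. TGACG is in 17.8% of all windows. Across the 65 windows of the 42 genes, several per gene where RefSeq gives several starts, 25 held ACGTG (38.5%), 13 TGACG (20.0%), 9 CACGTG (13.8%), 6 TATAAA (9.23%), 5 GTTAAT (7.69%) and 3 CAAAGTC (4.62%). Over all windows CAAAGTC is in 3.84% and ACGTG in 16.6%. Base composition was not matched, and windows of a gene can overlap, as for Aldoa, so that a site counts more than once. By gene, 21 of the 42 held ACGTG, against 18.5% of all genes. They included genes high in S1 (Aldoa, Pfkm, Pcx, Ugp2) and genes low in S1 (Pkm, Pygl, Khk, Pfkfb3). The others were within 2-fold or not compared.

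**Figure D2:**
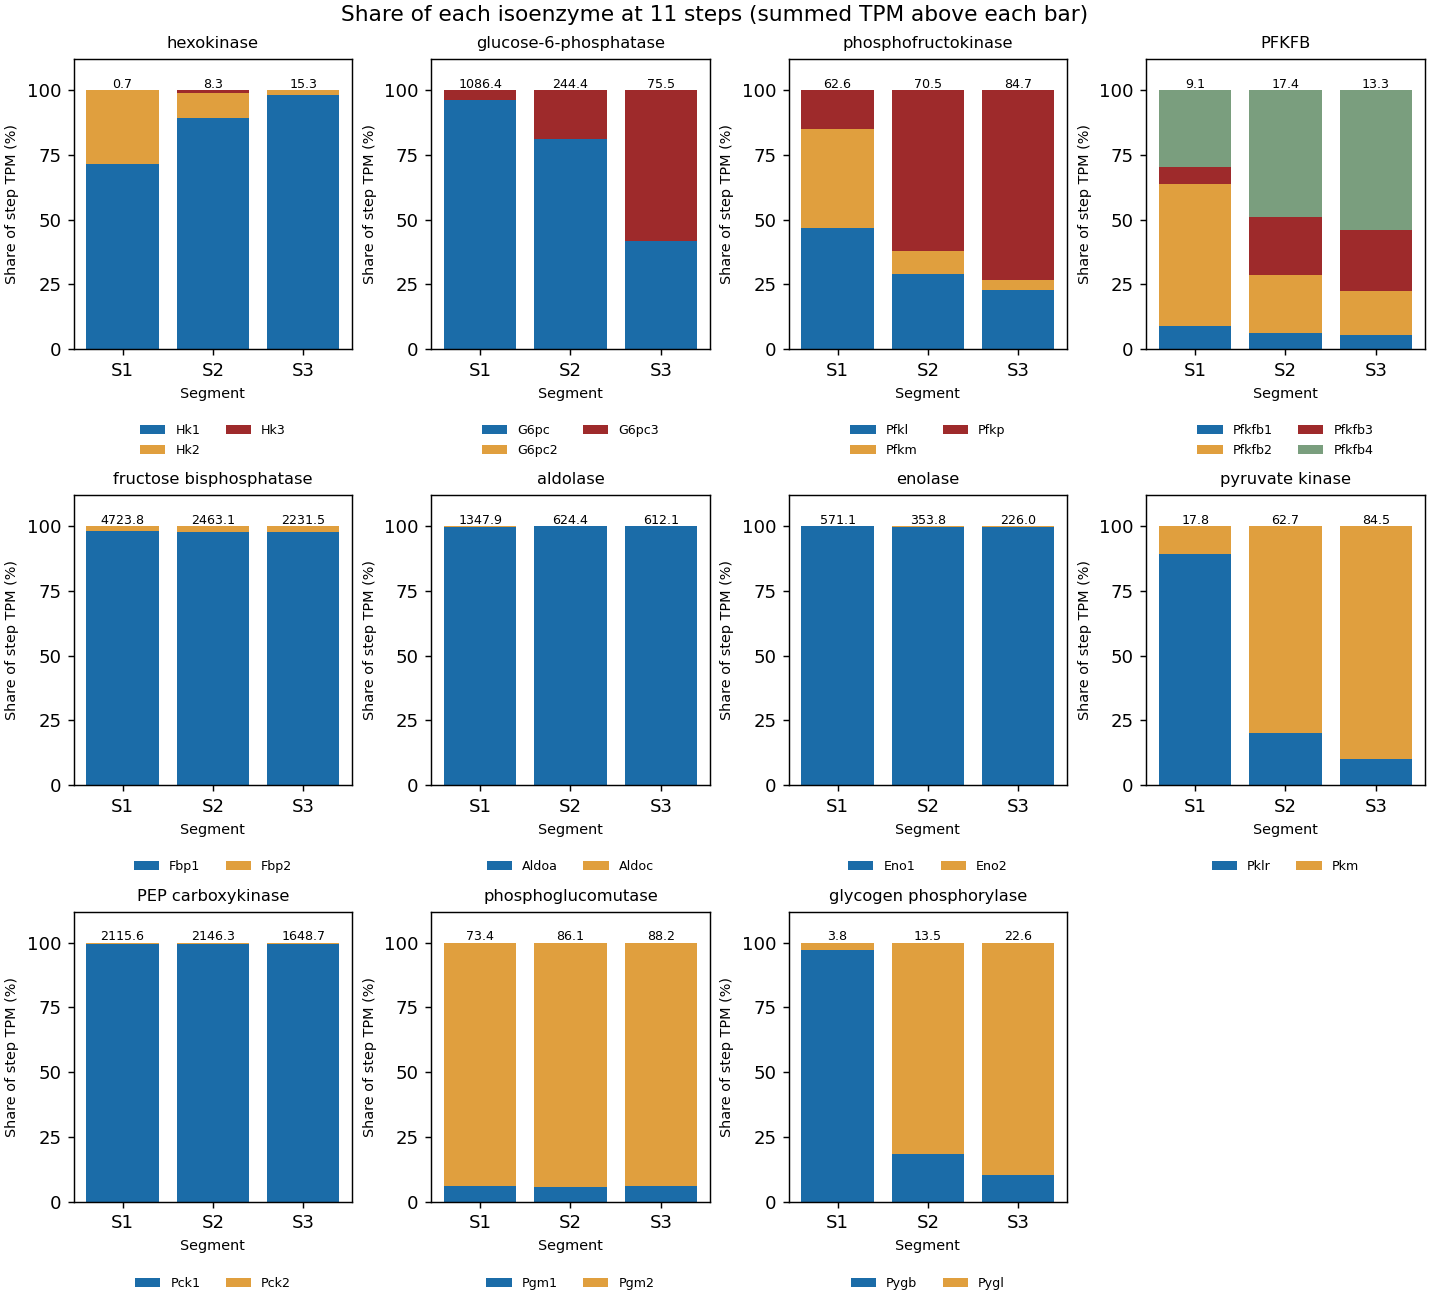
Share of each isoenzyme in the summed TPM of its step, in percent, for the 11 steps with more than 1 gene; bars are S1, S2 and S3, colours are genes, and the number above each bar is the summed TPM. The leading colour changes along the tubule at glucose-6-phosphatase, phosphofructokinase, PFKFB, pyruvate kinase and glycogen phosphorylase, and stays the same at the other 6 steps.

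Of the 11 steps with more than 1 gene, 5 had a different leading gene in S1 and S3. At 4 of these (phosphofructokinase, PFKFB, pyruvate kinase and glycogen phosphorylase) another gene led from S2 on, and at glucose-6-phosphatase only in S3. The plot of shares by step shows 1 gene far ahead in every segment at the other 6, least so for hexokinase in S1. The shifts had different make-ups. At pyruvate kinase and glycogen phosphorylase the second gene was higher in S2 and S3 while the first (Pklr, Pygb) was within 2-fold, except Pklr under median-of-ratios scaling over all genes above 0 (1.01 for S1 minus S3). At phosphofructokinase Pfkm was lower and Pfkp higher in the later segments. At glucose-6-phosphatase the leading gene alone was graded.

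**Figure D3:**
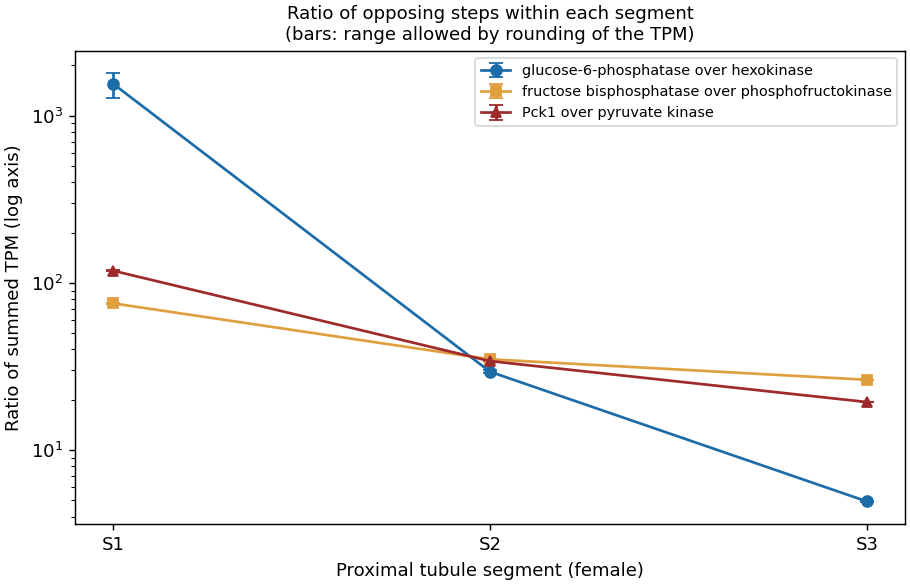
Ratio of summed TPM between opposing steps in S1, S2 and S3 on a log axis; points are the 3 pairs of steps and bars the range that rounding of the TPM to 1 decimal allows. All 3 ratios are highest in S1 and lowest in S3, and the ratio of glucose-6-phosphatase to hexokinase goes from 1552 to 4.93.

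Ratios between opposing steps set the 2 directions against each other inside each segment. Summed glucose-6-phosphatase over summed hexokinase was 1552, 29.4 and 4.93. Because hexokinase summed to 0.7 TPM in S1, rounding allows 1278 to 1811 there. Summed fructose bisphosphatase over phosphofructokinase was 75.5, 34.9 and 26.3, and Pck1 over summed pyruvate kinase was 118, 34.1 and 19.4. From S1 to S3 the ratios differed 315-fold, 2.86-fold and 6.10-fold in that order. Each of these 3 ratios was above 1 in every segment, and the lowest was glucose-6-phosphatase over hexokinase in S3. Pcx was not part of a ratio, and in S3 its 66.6 TPM lay below the 84.5 TPM of summed pyruvate kinase. These are ratios of transcripts, not of enzyme activity or flux.

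**Figure D4:**
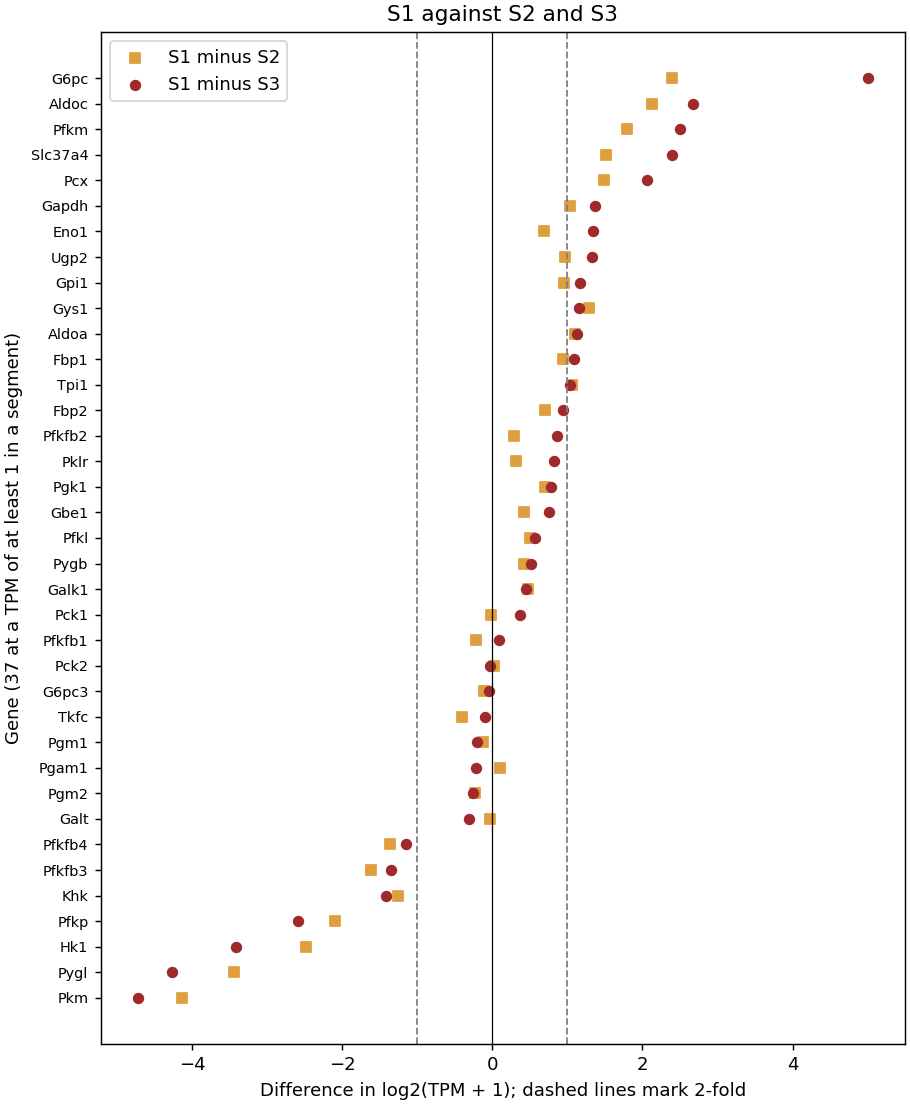
Difference in log2(TPM + 1) for the 37 genes with at least 1 TPM in a segment, ordered by S1 minus S3; squares are S1 minus S2, circles are S1 minus S3, and dashed lines mark 2-fold. The 7 genes left of the lower line are the same in both contrasts, and G6pc stands farthest to the right with 5.01 for S1 minus S3.

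The 7 genes lower in S1, of 37 compared, were Pkm, Pygl, Hk1, Pfkp, Khk, Pfkfb3 and Pfkfb4, in both contrasts, which share the S1 values. Of all genes 17.7% were lower in S1 than in S2 and 13.1% lower than in S3, so such genes are common in these data. Their differences for S1 minus S3 ran from -4.73 for Pkm to -1.15 for Pfkfb4. Hk1, Pkm and Pfkp are also found in many other cell types, so markers of those cells are given beside them. Endothelial markers (all 7 at 1 TPM or more in S2 and S3) had their highest sum in S2 (379 TPM) and were lower in S3 (125), and immune markers likewise (272 and 91.5). One immune marker, Csf1r, departed from its list, with 0.5, 32 and 46.9 TPM, the same order as Pkm, Pygl and Hk1. Stromal and mural markers summed to 1.6, 15.1 and 1.5 TPM and podocyte markers to 1.7, 14.4 and 3.6, with Nphs1 at 0.2 TPM or less. Hk1, Pkm, Pfkp, Pygl and Khk were higher in S3 than in S2, where all 4 of these marker sums were lower. None of these rises reached 2-fold on the log2(TPM + 1) scale. In plain TPM they ran from 1.12-fold for Khk to 2.03-fold for Hk1. Pfkfb3 and Pfkfb4 had their highest value in S2, as the marker sums did.

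A marker of a neighbouring nephron part also had this order. Umod, the main secreted protein of the thick ascending limb, was at 0.2, 21.1 and 29.1 TPM. The other 3 markers of that part did not follow: Slc12a1 was at 0.4, 0.3 and 1.0 TPM, Kcnj1 at 0.1 throughout, and Cldn16 at 0 in S1 and S2 and 0.1 in S3. Distal convoluted tubule markers summed to 1.4, 2.7 and 3.4 TPM over 3 genes, with Pvalb at 0.2 TPM or less. Collecting duct markers summed to 28.7, 6.6 and 0.6 TPM over 6 genes, nearly all of it Aqp3, with Aqp2 at 0.5 TPM or less. Red blood cell markers, of interest for Pklr, summed to 0.9 TPM or less. The order was also seen among the 5 general markers of the proximal tubule itself. Aqp1 (33, 383 and 561 TPM) and Lrp2 (143, 228 and 259) had it. Hnf4a had it too, with -0.28 for S1 minus S3 on the log2(TPM + 1) scale. Cubn was highest in S2 (46, 61.8 and 59.7 TPM), and Slc34a1 had the opposite order (10241, 2227 and 17). The part of other cells in the levels of the 7 genes was not tested.

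**Figure D5:**
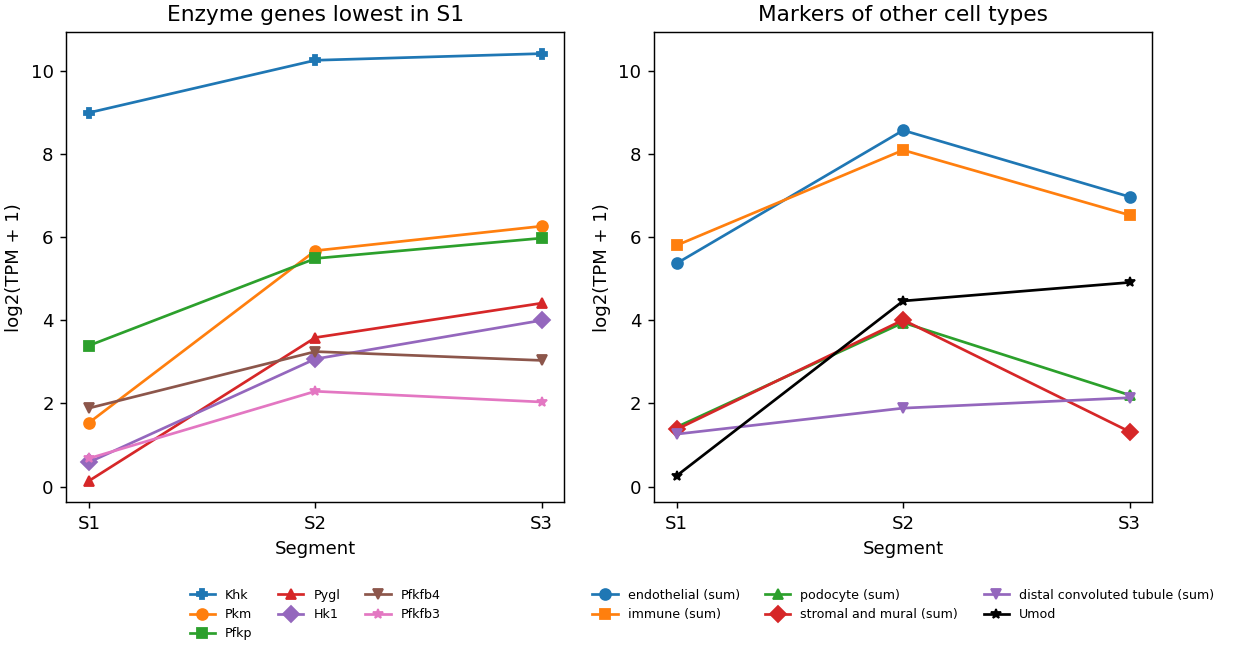
Left, the 7 genes for which S1 is 2-fold or more below both S2 and S3; right, summed markers of other cell types and Umod; both as log2(TPM + 1) by segment. Pkm, Pfkp, Pygl, Hk1 and Khk are highest in S3, within 2-fold of S2 on this scale. The endothelial, immune, podocyte and stromal sums are highest in S2. Of the marker lines drawn, Umod and the distal convoluted tubule sum are highest in S3.

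Neighbouring steps of the same pathways, from lists outside the 42 genes, had their own gradients. Their counts for S1 against S3 are of differences of 2-fold or more. They stand beside 10.5% of all genes higher in S1 and 13.1% lower, and are given as a description. At the lactate and pyruvate end, S1 exceeded S3 in 3 of 14 genes (Ldhb, Pdk2 and Pdp2) and was below it in 3 (Ldhd, Pdk3 and Pdk4). Ldhb, the heart-type lactate dehydrogenase subunit, was at 2824, 837 and 357 TPM, while Ldha, the muscle type, was at 1414, 795 and 953. Ldhb was thus the more abundant subunit in S1 and S2, and Ldha in S3. The pyruvate dehydrogenase kinases, which shut off entry of pyruvate to the citric acid cycle, had opposite slopes: Pdk2 was at 480, 159 and 89.2 TPM, Pdk3 at 24.2, 68.9 and 122 and Pdk4 at 1.4, 12.4 and 18.5. Of 8 polyol and fructose entry genes, 4 were higher in S1 than in S3 and none lower. They were Sord, which makes fructose from sorbitol (1548, 527 and 278 TPM), the aldose reductase Akr1b3 (20.4, 3.9 and 1.1), Slc2a2 (223, 43.9 and 14.4) and Dcxr (1227, 441 and 300.3). Their slope was opposite to that of Khk. The fructose transporter Slc2a5 was at 115, 131 and 104 TPM.

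In the list of gluconeogenic substrate supply, S1 exceeded S3 in 6 of 14 genes and was below it in 4. The malate and aspartate enzymes Mdh1 (2282, 983 and 868 TPM), Mdh2 (1047, 455 and 453), Got1 (150.2, 23.2 and 14.3) and Got2 (167, 68.9 and 45.2) were on the S1 side, with Gpd1 (298, 185 and 122) and Gpt2 (45.1, 27.8 and 8.5). On the S3 side were, among others, Gpt (4.6, 31.5 and 38.4 TPM), Gk, glycerol kinase (148, 290 and 317), and Gpd2 (2.8, 37.6 and 51.7). Of 8 pentose phosphate genes, Tkt (274, 77.9 and 45.6 TPM) and H6pd (86.3, 14.6 and 12.1) had S1 above both later segments by 2-fold or more. None had S1 below either of them by that much. Of 16 further glycogen and UDP-glucose genes compared, S1 exceeded S3 in 3 (Gaa and Gys2 among them) and was below it in 3 (Stbd1, Phkb and Ugdh). Stbd1, which tethers glycogen for breakdown, was at 0.8, 7.7 and 15.2 TPM, in the same order as Pygl. Of the 9 other glycolysis and sugar genes compared, 2 had S1 above S3 by 2-fold or more, Galm (189, 78.7 and 67.0 TPM) among them, and the reverse was seen for none. The medians of these lists for S1 minus S3 were 0.56 (lactate and pyruvate), 1.19 (polyol and fructose), 0.46 (substrate supply), 0.42 (pentose phosphate) and 0.066 (glycogen), and -0.14 for the other glycolysis genes, beside -0.0053 for all genes.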

How the data were processed

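Per the labels' protocols, RNA of the dissected tubules was amplified as cDNA (SMARTer V4 Ultra Low kit, 10 to 12 PCR cycles), and libraries made with Nextera XT were read as pairs of 50 bases. The authors deposited TPM, 1 value per gene and segment, with 1 decimal, per the file headers and values. The sources used here do not give the way libraries were combined. The submitters' processing notes list build mm10 and, with no role, STAR, RSEM, cutadapt and tools for the other assay. Depth is unknown, since TPM does not keep it, and values have no counting interval. The 3 columns of female RNA-seq were used. Another 5 value columns, which match no labelled RNA-seq group, were not.

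Differences are in log2(TPM + 1), over genes of at least 1 TPM in a segment, and are called at 2-fold. No test was possible with 1 value per segment, so the size of a difference stands in its place. Fold differences of a gene in plain TPM are printed only where both values reach 1. Ratios between summed steps are printed in every segment, also where hexokinase sums to under 1 TPM, with rounding ranges. Shares are percentages of a step's summed TPM, and rounding ranges move each TPM by 0.05. Every member is accounted for, and those 2-fold apart between any pair of segments or leading a step have all 3 values. Other genes are named where 2-fold apart and at least 10 TPM in a segment. Exceptions, chosen after their values were seen, are Hkdc1, Pygm, Ldha and Slc2a5, which serve the same steps, and genes named to spell out a small count. Some genes of the lists are not reported here. The call rule was tested on simulated data. The members, lists and motifs were chosen with earlier results of these data known. All 42 gene IDs matched the reference table of names. Promoter sequences are from RefSeq (GRCm38.p6). Python 3.11.15, pandas 2.3.3, numpy 2.4.6 and matplotlib 3.10.9 were used.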

Additional observations from a re-analysis of the deposited data

How the results depend on the processing

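Each segment has 1 value, so leaving out a library was not possible. No paired analysis was possible because the columns carry no replicate. The count of genes 2-fold higher in S1 than in S2 was 9 as reported and 18 with median-of-ratios scaling over all genes above 0 (the cause was not tested). The same scaling over genes of at least 1 TPM in all segments, an alternative chosen after seeing the data, gave 9. For S2 against S3 the count of higher genes went from 1 to 2 with a pseudocount of 0.1, which added Aldoc. The count of genes lower in S2 than in S3 went from 0 to 1 with a pseudocount of 0.1 and with quantile normalization (Hk1 in both), and to 3 with median-of-ratios scaling over all genes above 0 (Hk1, Pkm and Pygl). Other counts of 2-fold differences stayed within 1.5 times under a pseudocount of 0.1, no filter and a filter of TPM 5. They did so too under those scalings and the removal of mitochondrially encoded genes, Gpx3 and Kap. Single differences kept their side of the 2-fold line in 94 of 111 cases with median-of-ratios scaling over all genes above 0 and in 107 or more with each other setting that tests all 111, and no 2-fold difference turned its sign. Adding the other isoenzymes of a step changed the share of Pygl to 73.3% in S2, and for hexokinase and aldolase this alternative is not reported here. With the leading isoenzyme of each side alone, glucose-6-phosphatase over hexokinase was 2.93 in S3, where the leading genes were G6pc3 and Hk1. G6pc led in S1 and S2, so this alternative does not follow the same gene along the tubule. Fructose bisphosphatase over phosphofructokinase was then 158.5 in S1 (Fbp1 over Pfkl) and 54.8 in S2 (Fbp1 over Pfkp). The unknown depth and missing replicates limit every value, most of all those under 1 TPM.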

Other observations

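Of 20 regulators known for these pathways, 3 were past 2-fold toward S1 and 3 toward S3 between these segments, where 10.5% and 13.1% of all genes were. Values are again in the order S1, S2, S3. Ppargc1a, a coactivator of gluconeogenic and mitochondrial genes, was at 53.7, 14.2 and 3.7 TPM, with the same order as G6pc. Ppara, a receptor that turns on fatty acid oxidation (96.7, 37.5 and 21.8 TPM), and Nr3c1, the glucocorticoid receptor (28.1, 24.6 and 11.9), had that order too, and S1 exceeded S3 by over 2-fold in all 3. The opposite order was seen, among others, for Cebpb (15.9, 38.9 and 68.3 TPM) and Mlx, the partner of the glucose-sensing factor ChREBP (61.5, 88.4 and 147). Mlxipl, which encodes ChREBP, was highest in S2 (44.7, 134 and 71.9 TPM).

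Genes known to be induced by hypoxia-inducible factor had slopes in both directions. Of 9 compared, beside the same shares of all genes, S1 exceeded S3 by 2-fold or more in 3 (Ndrg1, Adm and Ankrd37) and was below it in 3 (Slc2a1, Car9 and P4ha1). Ndrg1 was at 1946, 492 and 124 TPM, whereas Car9 was at 3.8, 7.9 and 21.4 and the glucose transporter Slc2a1 at 9.8, 15.5 and 29.2. Slc2a1 thus had the same order as Hk1 and Pkm. The medians for S1 minus S3 were -0.11 over the regulators and 0.25 over the hypoxia list, beside -0.0053 over all genes.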
